A study of Mus musculus with 12 samples.

Results

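Kappa light chain variable (Igkv) segments were described in the ileum of mice on 4 diets. They are the genes whose name starts with Igkv in the series' expression table, which gave 144 of 44205 genes. The C57BL/6 mice were 16 weeks old and had been on diet for 10 weeks, with 3 mice in each group. HF-Sugar mice ate feed with 60% of its kcal from fat and drank sugar water (23% w/v), HF mice ate the same feed and drank plain water, NF-Sugar mice combined normal-fat feed with the sugar water, and NF mice combined it with plain water. RNA of the ileum was sequenced, 1 library for each mouse. The values are RPKM, that is reads scaled for exon length and for the depth of the library. The ileum markers Vil1, Epcam, Fabp6, Slc10a2, Lyz1 and Muc2 were above 0 in all 12 libraries.

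A kappa light chain is built in a developing B cell when one V segment is joined to a J segment, with the DNA between them deleted or, for a V segment in the opposite orientation, inverted, and the joined exon is then spliced to the constant segment Igkc. Each B cell and its daughters normally keep the V segment they chose, so the mixture of V segments in a tissue reflects which cells are there and how much light chain RNA each makes. In the gut most of that RNA comes from plasma cells of the lamina propria, which secrete IgA and make far more light chain RNA than a resting B cell. In whole tissue, more cells that carry a segment and more RNA in each such cell cannot be told apart.

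The segments that led a library are shown by the germline end of the V exon, where it is joined to J. Capitals mark the bases from the conserved cysteine codon to the end of the segment. They hold that codon, which precedes the third complementarity-determining loop, and the part that V contributes to the loop. The sequences were read from GENCODE transcripts of build GRCm38, 5′ to 3′, and all lie on chromosome 6.
Igkv1-117: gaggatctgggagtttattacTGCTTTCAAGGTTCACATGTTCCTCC
Igkv1-110: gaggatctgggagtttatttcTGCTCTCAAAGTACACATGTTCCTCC
Igkv1-135: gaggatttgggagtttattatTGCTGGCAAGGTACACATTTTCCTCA
Igkv3-4: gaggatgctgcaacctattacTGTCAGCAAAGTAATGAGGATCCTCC
Igkv5-48: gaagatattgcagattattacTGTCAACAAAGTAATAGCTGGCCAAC
Igkv8-27: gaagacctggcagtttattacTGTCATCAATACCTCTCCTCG
Igkv8-28: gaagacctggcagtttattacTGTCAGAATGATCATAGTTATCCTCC
Igkv15-103: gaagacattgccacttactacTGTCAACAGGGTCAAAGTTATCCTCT
Of these 8 ends that of Igkv8-27 contributes 21 bases from the cysteine codon, and each of the others contributes 26. Over the 28 segments whose ends were read, 19 contributed 26 bases, 7 contributed 28, and 1 each contributed 21 and 31.

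By position the 8 segments lie at chr6:68121046-68121827 (Igkv1-117), chr6:68270485-68271267 (Igkv1-110), chr6:67609713-67610508 (Igkv1-135) and chr6:68437440-68437925 (Igkv15-103), all 4 on the plus strand and in the part of the locus far from J. Igkv5-48 (chr6:69726573-69727138), Igkv8-27 (chr6:70171809-70172270) and Igkv8-28 (chr6:70143593-70144166) lie on the minus strand, and Igkv3-4 (chr6:70671788-70672377) on the plus strand at 50.2 kb from Igkj1, the first J segment. All 144 fall between 67555497 and 70704177, upstream of Igkj1 at 70722562. The annotation counts 100 of them as functional V genes and 44 as V pseudogenes, in 20 families by name, with 62 on the plus and 82 on the minus strand. It lists 160 Igkv genes in all, and the 16 that the table lacks are all annotated as pseudogenes.

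Many segments resemble one another closely enough to share reads. Igkv1-117 and Igkv1-110, the segments with the highest mean usage, were identical at 271 of the last 280 bases of their transcripts (96.8%). Their last 90 bases differ at 4 positions, shown in capitals.
Igkv1-117: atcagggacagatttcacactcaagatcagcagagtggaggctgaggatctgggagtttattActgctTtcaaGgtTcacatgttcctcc
Igkv1-110: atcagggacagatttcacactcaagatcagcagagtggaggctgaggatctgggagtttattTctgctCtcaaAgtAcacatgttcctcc
A stretch of 100 bases that also occurs in another Igkv transcript was found in 48 of the 144 segments, and these 48 held 50.5% of usage on average. How reads that match several segments were counted is not given in the sources used here, so the split within such pairs is uncertain. It is most uncertain for Igkv3-6 and Igkv3-11, where 74.1% and 62.9% of the 100-base stretches are shared. Of the 12 most used segments 6 share a stretch. Igkv3-4, Igkv8-27, Igkv8-28, Igkv8-30, Igkv5-48 and Igkv14-111 share none.

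Library depth, worked out from the smallest RPKM increments, was 15.3 to 39.0 M reads, of which 7720 (HF replicate 1) to 27713 (NF replicate 2) lay in Igkv segments. Turned back into reads, 1710 of 1728 Igkv values were whole within 0.1 read. Most of the others belong to high counts and were off by at most 0.0137% of the count. Only Igkv2-137 gave fractions of a read that were large beside the count (16.47 in HF-Sugar replicate 1). On the first principal component of all genes, which held 40.1% of the variance, 4 libraries stood apart from the other 8: HF-Sugar replicate 2, HF replicate 2, NF-Sugar replicate 1 and NF replicate 2. These 1 in each group are named below wherever a result rests on them.

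The 12 libraries had 8 different leading segments, with Igkv1-117 leading 3 libraries and Igkv1-110 and Igkv8-28 leading 2 each. The share of a segment is its RPKM over the summed RPKM of all 144. In HF-Sugar mice the most used segments were Igkv1-117 in replicate 1 (23.2%), Igkv1-110 in replicate 2 (15.7%) and Igkv8-28 in replicate 3 (14.7%). In HF mice they were Igkv1-117 (17.7%), Igkv3-4 (23.3%) and Igkv5-48 (9.13%). In NF-Sugar mice they were Igkv8-28 (22.6%), Igkv8-27 (10.9%) and Igkv1-117 (11.6%), and in NF mice Igkv1-110 (9.51%), Igkv1-135 (10.2%) and Igkv15-103 (10.5%). With every segment counted apart, no diet group had the same leading segment in 2 of its 3 mice. The split of reads between Igkv1-117 and Igkv1-110 is uncertain, and these led HF-Sugar replicates 1 and 2. The lack of a shared leader thus rests on counting them apart. Counting error was small beside these gaps: the 23.2% of Igkv1-117 in HF-Sugar replicate 1 stands on 5191 reads, 24.8% of the library's Igkv reads, with a 95% Wilson interval of 24.2% to 25.4%. Such intervals cover counting error only.

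**Figure D1:**
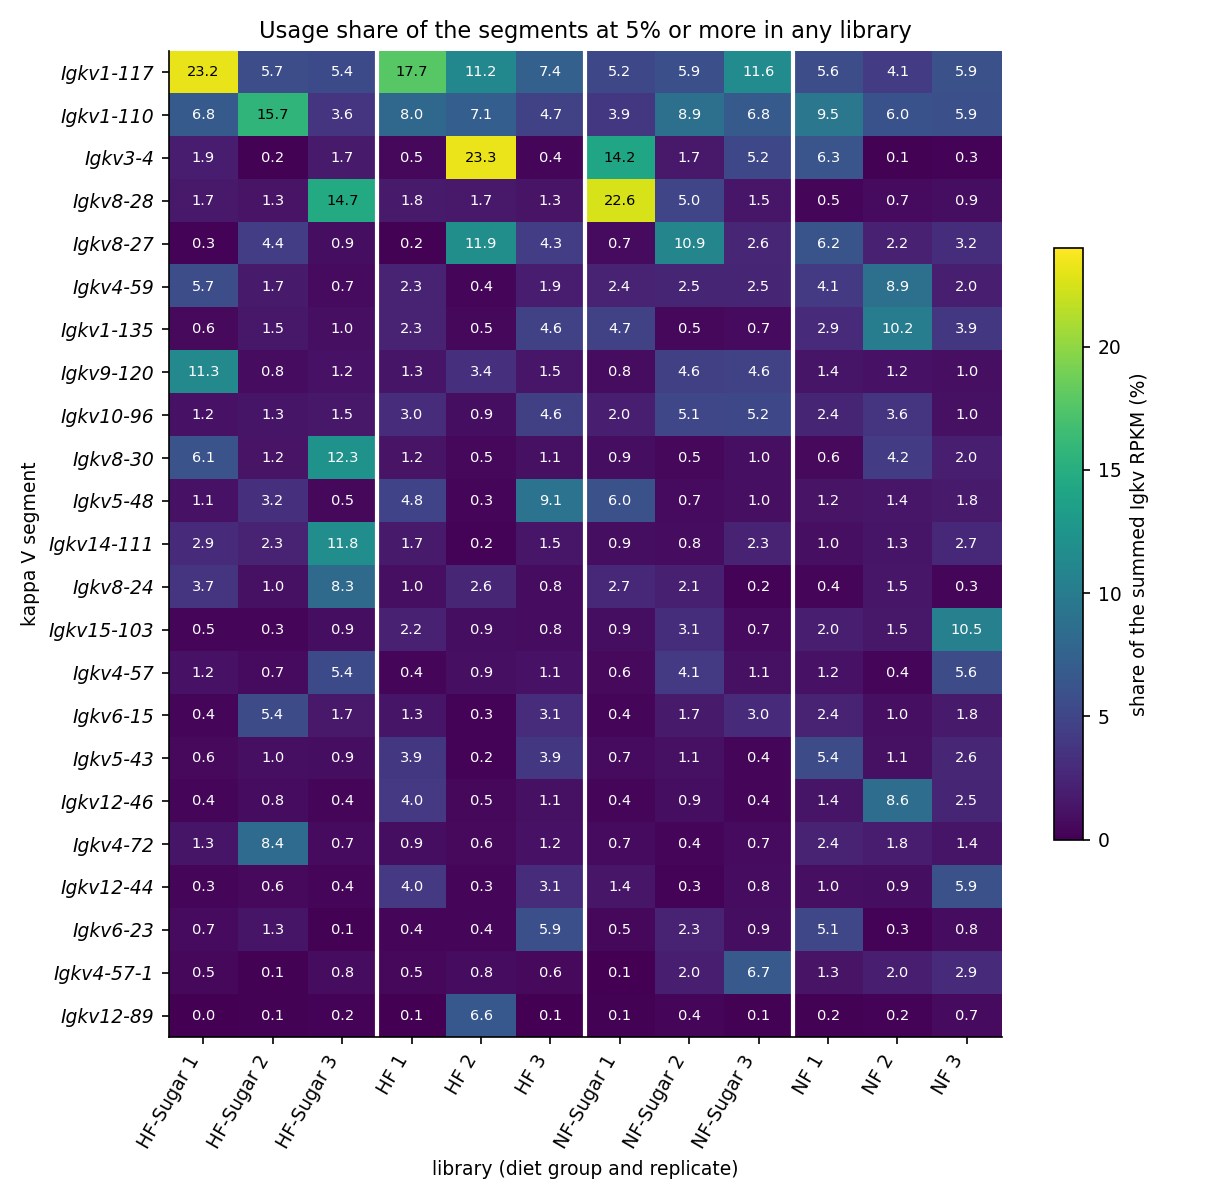
Usage share (percent of the summed Igkv RPKM, color and number) of the 23 segments that reached 5% in any library (down, by mean share) in each of the 12 libraries (across, by diet group). Igkv1-117 and Igkv1-110 are high in most columns, while the other high cells stand in 1 to 4 libraries each.

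Igkv1-117 and Igkv1-110 formed a common core. Igkv1-117 held 23.2%, 5.71% and 5.40% in HF-Sugar mice, 17.7%, 11.2% and 7.38% in HF mice, 5.22%, 5.86% and 11.6% in NF-Sugar mice, and 5.64%, 4.15% and 5.95% in NF mice. It thus reached 5% in 11 of 12 libraries, and all 3 HF values lay above all 3 NF values. Igkv1-110 held 6.75%, 15.7% and 3.64% in HF-Sugar mice, 7.99%, 7.14% and 4.66% in HF mice, 3.88%, 8.87% and 6.78% in NF-Sugar mice, and 9.51%, 6.01% and 5.90% in NF mice. Its groups overlapped, and its coefficient of variation over the 12 libraries (44.7%) was the lowest of the 27 segments with a mean share of 1% or more, followed by Igkv6-17 (51.9%). These 27 segments held 72.0% of usage on average, whereas 61 segments under 0.1% held 1.49% together.

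The segments that varied most were high in a few mice and low in the rest. Igkv8-28 (coefficient of variation 155%) held 1.66%, 1.31% and 14.7% in HF-Sugar mice, 1.78%, 1.67% and 1.26% in HF mice, 22.6%, 5.05% and 1.5% in NF-Sugar mice, and 0.458%, 0.668% and 0.888% in NF mice. All 9 values of the other groups lay above the 3 NF values, with HF-Sugar replicate 3 and NF-Sugar replicate 1 far above the rest. Igkv3-4 (154%) held 1.90%, 0.182% and 1.72% in HF-Sugar mice, 0.505%, 23.3% and 0.445% in HF mice, 14.2%, 1.68% and 5.20% in NF-Sugar mice, and 6.28%, 0.105% and 0.255% in NF mice. Its highest and lowest values, in HF replicate 2 and NF replicate 2, both stand in libraries of the 4 that stood apart. Igkv15-103 (137%) reached 10.5% in NF replicate 3 and at most 3.12% elsewhere. Igkv12-46 (134%) reached 8.61% in NF replicate 2 and at most 3.99% elsewhere.

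Of the 23 segments that reached 5% in any library, 12 did so in exactly 1, and only Igkv1-117 and Igkv1-110 did so in 6 or more. A segment at 5% or more and at least 5 times the median of the other 11 libraries was counted as expanded in that library, a rule set after the values were seen. By this rule 21 expansions in 17 segments were found in 10 of the 12 libraries. HF-Sugar mice had 2, 1 and 4 of them, HF mice 0, 2 and 2, NF-Sugar mice 2, 0 and 1, and NF mice 2, 2 and 3. In HF-Sugar replicate 3 the 4 expanded segments (Igkv8-28, Igkv8-30, Igkv14-111 and Igkv8-24) held 47.0% of usage. The steepest was Igkv12-89 in HF replicate 2, at 6.62% against a median of 0.142% in the other libraries, 46.6 times as high. It stood on 971 reads in that library.

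Usage was more concentrated in HF-Sugar mice than in NF mice by the effective number and by the shares of the 1 and 5 most used segments. The groups overlapped for the 10 most used and for the segments that held 90% of usage (32 to 41 against 38 to 45). They also overlapped, barely, for Pielou evenness (0.6956 to 0.7751 against 0.7747 to 0.7960), the Shannon entropy over its maximum for the segments seen. The effective number of segments, the exponential of the Shannon entropy of the shares, counts how many equally used segments would give the same diversity. It was 27.4, 38.2 and 27.0 in HF-Sugar mice, 42.1, 20.7 and 46.2 in HF mice, 26.1, 40.2 and 41.1 in NF-Sugar mice, and 43.7, 38.4 and 46.1 in NF mice. The group values were 30.8 ± 6.39, 36.4 ± 13.7, 35.8 ± 8.42 and 42.7 ± 3.93 in the same order of groups (mean ± SD, n = 3 each). All HF-Sugar values lay below all NF values, though the 38.2 of HF-Sugar replicate 2 and the 38.4 of NF replicate 2 nearly met, and both libraries are among the 4 that stood apart. Without those 4 libraries the means were 27.2 in HF-Sugar mice and 44.9 in NF mice (n = 2 each). With Igkv1-117 alone left out the HF-Sugar and NF values overlapped (difference in means -8.93, against -11.9 with it), as they did when segments were summed into families (-1.15). HF and NF-Sugar mice overlapped with every other group. These indices are scores over the 144 segments and are given with no test.

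The share of the most used segment was 23.2%, 15.7% and 14.7% in HF-Sugar mice and 9.51%, 10.2% and 10.5% in NF mice, 17.9 ± 4.63% against 10.1 ± 0.499% (mean ± SD, n = 3 each). The groups did not overlap. NF-Sugar mice (22.6%, 10.9% and 11.6%) also lay above NF mice, by 4.94 percentage points on average and by 1.17 without NF-Sugar replicate 1. The 5 most used segments held 53.0%, 39.7% and 52.4% in HF-Sugar mice and 33.1%, 38.1% and 33.8% in NF mice. For the 10 most used the groups overlapped (65.5%, 54.1% and 69.2% in HF-Sugar mice and 50.4%, 55.8% and 49.1% in NF mice). To reach 50% of usage took 5, 9 and 5 segments in HF-Sugar mice, 9, 4 and 10 in HF mice, 5, 9 and 9 in NF-Sugar mice, and 10, 8 and 11 in NF mice.

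**Figure D2:**
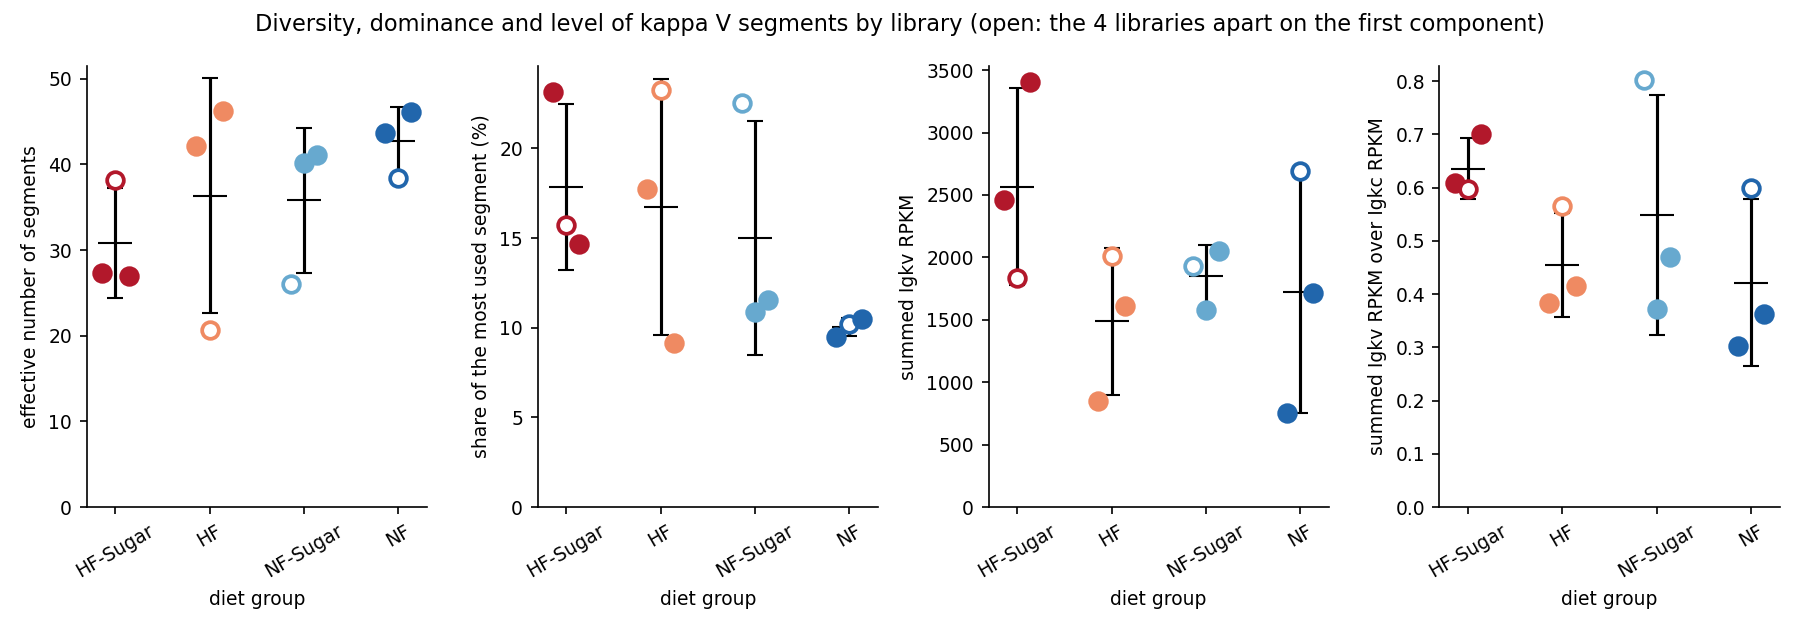
Effective number of segments, share of the most used segment (percent), summed Igkv RPKM and its ratio to Igkc RPKM (vertical axes) by diet group (horizontal axes), with 1 point per library and bars for mean ± SD (n = 3). Open points are the 4 libraries that stood apart; HF-Sugar points lie below NF points for the effective number and above them for the most used segment, and the other panels overlap between these groups.

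How many segments were seen at all differed little between the diet groups. Between 108 and 126 of the 144 were above 0 in a library, 86 were above 0 in all 12, and each was above 0 in at least 1. At a common 7720 Igkv reads the expected number was 105 ± 2.0 in HF-Sugar mice, 110 ± 10.9 in HF mice, 107 ± 4.07 in NF-Sugar mice and 110 ± 7.56 in NF mice. The ranges of the 4 groups overlapped, and HF replicate 2 had the fewest (98.3). The 4 libraries that stood apart had 98.3 to 103.3 at common reads, against 104.7 to 120 in the other 8. Above 0 they had 108 to 111 segments, against 113 to 126. The libraries differed more in how steeply shares fell with rank.

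**Figure D3:**
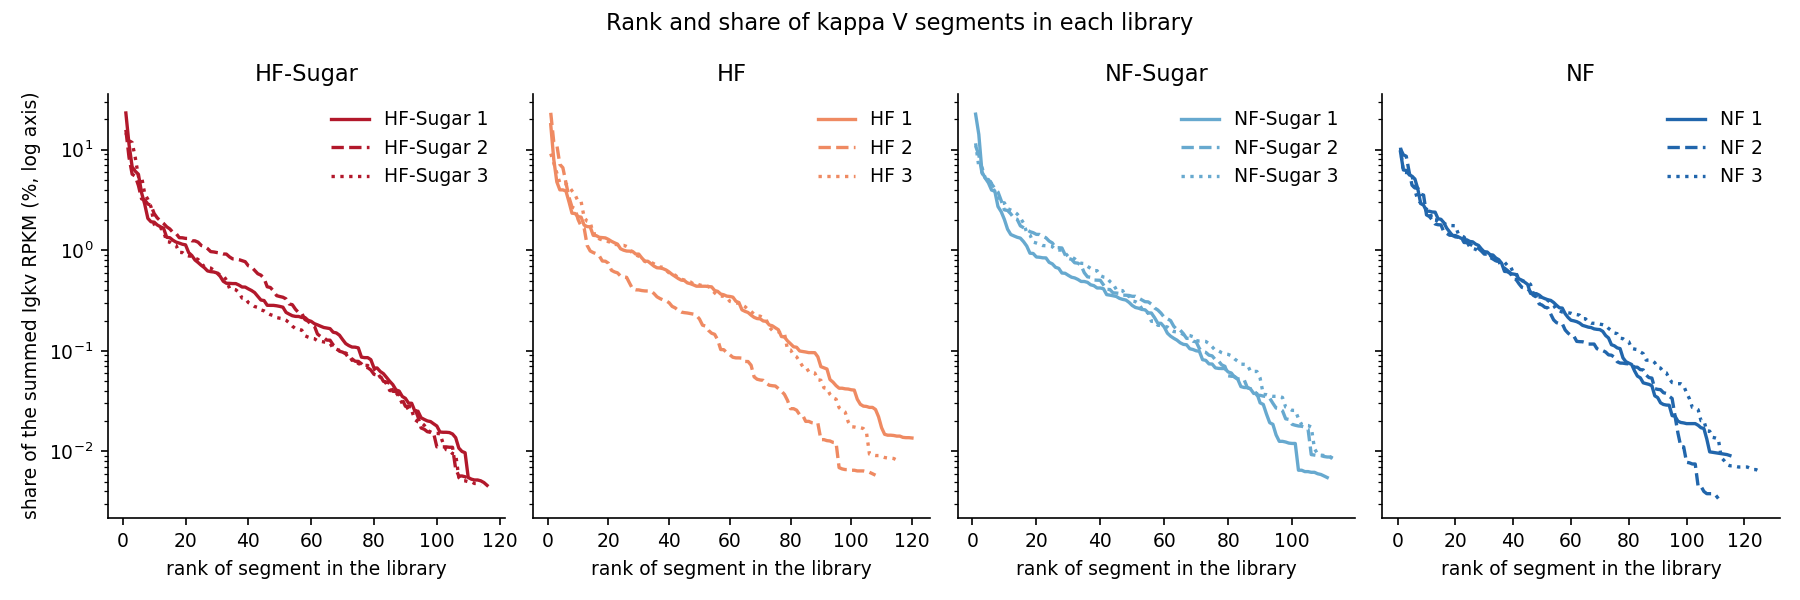
Share of the summed Igkv RPKM (percent, vertical log axis) against the rank of the segment in its library (horizontal axis), in 1 panel per diet group and 1 line per mouse. In HF-Sugar replicates 1 and 3, HF replicate 2 and NF-Sugar replicate 1, the first 5 segments held 52.4% to 60.1%, against 31.7% to 39.7% in the other 8 libraries, and the line of HF replicate 2 lies below those of HF replicates 1 and 3 at the middle and high ranks.

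The 4 libraries with an effective number under 30 (HF-Sugar replicates 1 and 3, HF replicate 2 and NF-Sugar replicate 1) had a summed Igkv level of 1931 to 3403 RPKM. In the other 8 libraries it was 758 to 2691 RPKM. By group the summed level was 2462, 1838 and 3403 RPKM in HF-Sugar mice, 852, 2008 and 1607 in HF mice, 1931, 1575 and 2048 in NF-Sugar mice, and 758, 2691 and 1715 in NF mice. HF-Sugar mice averaged 2568 ± 788 RPKM against 1721 ± 967 in NF mice, and all groups overlapped.

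The constant segment Igkc, which nearly every kappa transcript carries once, was at 4047, 3077 and 4850 RPKM in HF-Sugar mice, 2223, 3545 and 3867 in HF mice, 2407, 4230 and 4359 in NF-Sugar mice, and 2504, 4487 and 4731 in NF mice. Its difference between HF-Sugar and NF mice was 0.00 on the log2 scale (limma adjusted p = 0.9998). The ratio of summed Igkv to Igkc was 0.608, 0.597 and 0.702 in HF-Sugar mice, 0.383, 0.566 and 0.416 in HF mice, 0.372 to 0.802 in NF-Sugar mice, and 0.303, 0.60 and 0.363 in NF mice. It was 0.566 to 0.802 in the 4 libraries that stood apart and 0.303 to 0.702 in the other 8. In HF, NF-Sugar and NF mice the library that stood apart had the highest ratio of its group, and in HF-Sugar mice it had the lowest, and their part in the group differences was not tested. HF-Sugar replicates 1 and 3, which did not stand apart, held the highest ratios of the 8.

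Markers of the cells that make or could make light chains were given beside the segments, from a list chosen for this purpose. Of 13 plasma cell genes (among them Jchain, which links IgA units, and Igha, the IgA heavy chain) 10 were higher and 3 lower in HF-Sugar than in NF mice, and their summed level was 1181 to 2431 RPKM in HF-Sugar mice and 862 to 1602 in NF mice. Of the 12 B cell genes tested, 12 were higher in HF-Sugar than in NF mice, with a median log2 difference of 0.40 against -0.01 over all 17662 genes tested, and their summed level was 70.8 to 118 RPKM in HF-Sugar mice and 60.5 to 64.5 in NF mice. The same 12 were higher in HF than in NF mice (median 0.40), where 2 plasma cell genes were higher and 11 lower (median -0.13) and 7 genes of the germinal centre and Peyer's patch list were higher and 2 lower (median 0.08). The germinal centre and Peyer's patch list, 9 of whose 12 genes were tested, had 8 higher and 1 lower in HF-Sugar mice, at 19.2 to 28 RPKM against 16.1 to 17.6 in NF mice. None of these genes passed limma's adjusted threshold of 0.05, and in these lists the smallest adjusted p in HF-Sugar against NF was 0.96. Rag1 and Rag2, which cut the DNA beside V and J segments for joining, were at most 0.0376 and 0.0574 RPKM. Whether the B cell levels account for any segment difference was not tested.

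Libraries of the same diet had a median distance no smaller than that of libraries of different diets. The Bray-Curtis distance between the shares of 2 libraries is 0 where they are equal and 1 where no segment is shared. Its median was 0.537 over the 12 pairs within a group (0.338 to 0.591) and 0.497 over the 54 pairs between groups (0.325 to 0.629). Over the 32 pairs of 1 library that stood apart with 1 that did not, the median was 0.505. Over the 28 pairs of libraries that did not stand apart it was 0.443. These kinds of pair were not balanced within and between groups, so the first 2 medians do not compare diet alone. Diet group held 26.3% of the squared distances while taking 27.3% of the degrees of freedom. The 10 most used segments of a pair had a median of 4 in common both within and between groups (2 to 6). Among HF-Sugar mice the 3 distances were 0.527 to 0.591, and among NF mice 0.405 to 0.457. HF replicates 1 and 3 were the closest pair within a group (0.338). Over the 66 pairs the median rank correlation across segments was 0.83, a description in which low segments of a library weigh as much as high ones.

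Position and family were described next. By distance from Igkj1 the 48 nearest segments held 38.9% of usage, the middle 48 held 22.5% and the farthest 48 held 38.6%. The 62 plus-strand segments held 44.1 ± 7.96% and the 82 minus-strand segments 55.9 ± 7.96% (mean ± SD, n = 12). The 44 annotated pseudogenes held 0.993% on average and 0.468% to 1.73% in a library, led by Igkv4-73 (0.309%), Igkv4-60 (0.115%) and Igkv9-119 (0.0639%).

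**Figure D4:**
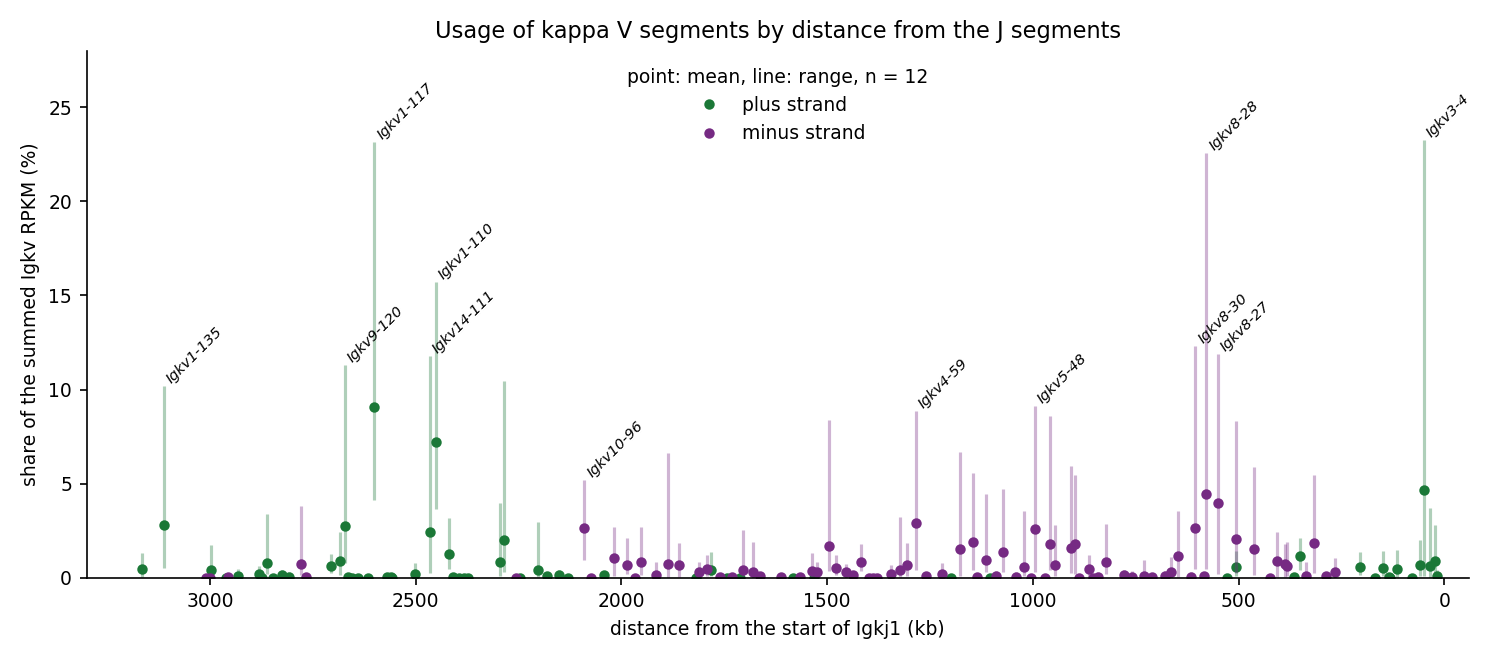
Usage share (percent of the summed Igkv RPKM, vertical axis) of the 144 segments against the distance of each from the start of Igkj1 (kb, horizontal axis), with points for the mean and lines for the range over 12 libraries, colored by strand. The 12 most used segments are named and lie at both ends and in the middle of the locus; the ranges of Igkv1-117, Igkv8-28 and Igkv3-4 reach over 20%.

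The families Igkv1 (21%), Igkv4 (17.6%) and Igkv8 (14.9%) had the highest summed shares. Igkv1 groups overlapped (10.8% to 32.1% in HF-Sugar mice and 19.2% to 23.9% in NF mice). Igkv4, whose 33 segments make it the largest family, held 16.6%, 19.3% and 15.9% in HF-Sugar mice, 13.4%, 12.9% and 12.0% in HF mice, 10.8%, 18.2% and 18.7% in NF-Sugar mice, and 20.6%, 30.9% and 21.3% in NF mice. All 9 libraries of the other diets lay below the 3 NF libraries. Of the 20 families 1 (5%) was split in this way, and the share of all genes so split is not given here. Igkv8 held 15.8%, 9.36% and 37.3% in HF-Sugar mice and 8.08%, 9.02% and 8.12% in NF mice, with no overlap and with HF-Sugar replicate 3 far above the rest. Between HF-Sugar and NF mice 6 of the 20 families (30%) did not overlap, 2 higher (Igkv7 and Igkv8) and 4 lower (Igkv4, Igkv12, Igkv15 and Igkv16), where 10.2% of all genes tested did not overlap in RPKM. In HF against NF, NF-Sugar against NF and HF-Sugar against HF it was 3 families each (15%), 1 higher and 2 lower, where 8.35%, 5.86% and 9.83% of all genes did not overlap. Between HF-Sugar and NF-Sugar mice all 20 families overlapped, where 5.93% of all genes did not. The family figures are of shares and the gene figures of RPKM, so they are unlike measures. Shares of families sum to a whole and are not independent.

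The Igkv12 family was singled out after its values were seen. It held 0.932%, 2.77% and 1.43% in HF-Sugar mice and 2.88%, 1.92% and 2.31% in NF-Sugar mice. In mice on plain water it held 9.64%, 7.64% and 5.52% (HF) and 3.05%, 10.5% and 10.8% (NF). All 6 sugar-drink libraries thus lay below all 6 plain-water libraries, the only one of the 20 families of which this held, and no family separated high from normal fat. How many of all genes were split in these ways is not given here, so both statements stand without a background. Different members made up the family in different plain-water mice: Igkv12-46 (3.99%) and Igkv12-44 (3.98%) in HF replicate 1, Igkv12-89 (6.62%) in HF replicate 2, Igkv12-46 (8.61%) in NF replicate 2 and Igkv12-44 (5.93%) in NF replicate 3. The gap was narrow between NF-Sugar replicate 1 (2.88%) and NF replicate 1 (3.05%).

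Single segments were then compared between diets with limma on log2(RPKM + 1), fitted over all genes. Of the 144 segments, 106 reached 0.5 RPKM in at least 3 libraries and were tested, and 38 were not (33 pseudogenes and 5 functional segments, none above 0.0821% mean share). No Igkv segment passed the adjusted threshold of 0.05 in any contrast, at a background of 0% of 17662 genes in HF-Sugar against NF, HF against NF, NF-Sugar against NF and HF-Sugar against NF-Sugar, and of 0.00566% in HF-Sugar against HF. The main effects of fat and sugar and their interaction likewise gave 0 segments at a background of 0%. At an unadjusted p under 0.05, 12 segments (11.3% of 106, against 4.48% of all genes tested) were counted in HF-Sugar against NF, 5 (4.72% against 3.75%) in HF against NF, 14 (13.2% against 1.86%) in NF-Sugar against NF, 8 (7.55% against 4.39%) in HF-Sugar against HF and 10 (9.43% against 1.72%) in HF-Sugar against NF-Sugar. The main effect of fat gave 7 (6.6% against 2.64%), that of sugar 13 (12.3% against 3.71%) and the interaction 11 (10.4% against 2.54%). Limma-voom on recovered reads also called 0 (11, 3, 10, 7 and 8 at an unadjusted p under 0.05 in the same order of the 5 pairs, or 10.4%, 2.83%, 9.43%, 6.6% and 7.55% of segments, against 5.06%, 4.37%, 1.75%, 4.44% and 1.2% of its 16921 genes). With shares in place of levels limma called 0 segments in each contrast (14, 5, 14, 4 and 9 at an unadjusted p under 0.05, or 13.2%, 4.72%, 13.2%, 3.77% and 8.49% of segments, against 4.49%, 3.74%, 1.86%, 4.37% and 1.71% of all genes).

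Igkv segments varied more between mice of one diet than other genes of similar level. The residual SD of an Igkv segment was 1.05 on the log2 scale (median of the 84 segments within the level range used), against 0.209 for the 13050 other genes of the same range, and the Igkv median stood at their 98.4th percentile. The SE of a log2 difference between HF-Sugar and NF mice was 0.74 for the median Igkv segment and 0.18 for the median gene.

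Segments whose groups did not overlap were counted next, beside the same share of all genes. In HF-Sugar against NF mice 8 segments lay higher and 2 lower (9.43% of 106), at a background of 10.2% of all genes tested. In HF against NF mice 4 lay higher and 4 lower (7.55%), at a background of 8.35%. In HF-Sugar against HF mice 12 lay higher and 2 lower (13.2%), at a background of 9.83%. In NF-Sugar against NF mice it was 5 each way (9.43%) at a background of 5.86%, and in HF-Sugar against NF-Sugar mice 8 higher and 3 lower (10.4%) at a background of 5.93%. These contrasts share groups and are not independent. The median log2 difference over the 106 segments was 0.07 in HF-Sugar against NF, -0.26 in HF against NF, -0.05 in NF-Sugar against NF, 0.27 in HF-Sugar against HF and 0.18 in HF-Sugar against NF-Sugar. Over all genes it lay between -0.01 and 0.00.

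The segments with the smallest p among those without overlap were described by their values, and none passed. Igkv8-19, whose V end differs from that of Igkv8-28 at 1 of 47 bases, stood at 47.3, 16.9 and 27.6 RPKM in HF-Sugar mice, 7.80, 4.87 and 9.09 in HF mice, 6.70, 23.6 and 3.19 in NF-Sugar mice, and 0.555, 2.46 and 3.58 in NF mice. Every HF-Sugar library lay above every NF library, and so did every HF library. The difference between HF-Sugar and NF was 3.28 ± 0.62 (SE) on the log2 scale (limma adjusted p = 0.681), and 2.82 when shares were compared (adjusted p = 0.96).

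Igkv4-63 stood at 11.1, 12.6 and 5.58 RPKM in HF-Sugar mice, against 1.78, 1.71 and 4.78 in HF mice, 1.43, 1.55 and 2.05 in NF-Sugar mice, and 1.24, 3.82 and 1.76 in NF mice. All 3 HF-Sugar libraries lay above the other 9. Its log2 differences were 1.67 against NF, 1.53 against HF and 1.91 against NF-Sugar, each with an SE of 0.39 and limma adjusted p of 0.96, 1 and 1. Its share was at most 0.683% in any library.

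Igkv14-111 stood at 70.7, 42.7 and 401 RPKM in HF-Sugar mice and at 14.6, 4.78 and 23.4 in HF mice, without overlap (log2 3.04 ± 0.89, limma adjusted p = 1). Igkv4-72 had 1 of the 2 smallest interaction p-values (log2 3.27 ± 0.96, limma adjusted p = 0.9999), with 32.8, 154 and 23.2 RPKM in HF-Sugar mice, 7.81, 12.0 and 19.4 in HF mice, 13.1, 5.91 and 13.5 in NF-Sugar mice, and 18.1, 48.3 and 24 in NF mice. The highest values, in HF-Sugar replicate 2 and NF replicate 2, came from libraries that stood apart. The last 49 bases of Igkv4-72 equal those of Igkv4-59, although no stretch of 100 bases of Igkv4-72 occurs in another segment.

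Igkv4-61 and Igkv4-79 had the smallest p in HF against NF mice, and both were lower. Igkv4-61 stood at 5.59, 1.57 and 5.44 RPKM in HF mice and at 9.61, 13.8 and 24.9 in NF mice (log2 -1.78 ± 0.58). Igkv4-79 stood at 3.39, 2.58 and 4.15 RPKM in HF mice and at 14.3, 9.24 and 4.16 in NF mice (log2 -1.16 ± 0.43), so that HF replicate 3 and NF replicate 3 nearly met. Both had a limma adjusted p of 0.9997 and share stretches of 100 bases with other Igkv4 segments, with one another among them.

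Igkv8-18 and Igkv8-16 were near 0 outside NF-Sugar mice. Igkv8-18 stood at 0.852, 0.878 and 1.49 RPKM in NF-Sugar mice (8, 7 and 9 reads) and at 0.260, 0.0920 and 0 in NF mice (4, 1 and 0 reads). In HF-Sugar mice it had 1, 0 and 0 reads and in HF mice 0, 1 and 0. Its log2 difference was 0.88 ± 0.13 in NF-Sugar against NF (limma adjusted p = 0.778) and -1.0 ± 0.13 in HF-Sugar against NF-Sugar (adjusted p = 0.0905, the smallest of any segment), and -0.89 ± 0.19 for the interaction (adjusted p = 0.9999). Igkv8-16 stood at 2.22, 13.1 and 2.25 RPKM in NF-Sugar mice and at 0.271, 0 and 0.656 in NF mice (log2 2.07 ± 0.48, adjusted p = 1), with 4 reads at most in any HF-Sugar or HF library. Without the 3 NF-Sugar libraries neither segment would have reached the level for testing, so a difference from the other groups was built into their selection.

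**Figure D5:**
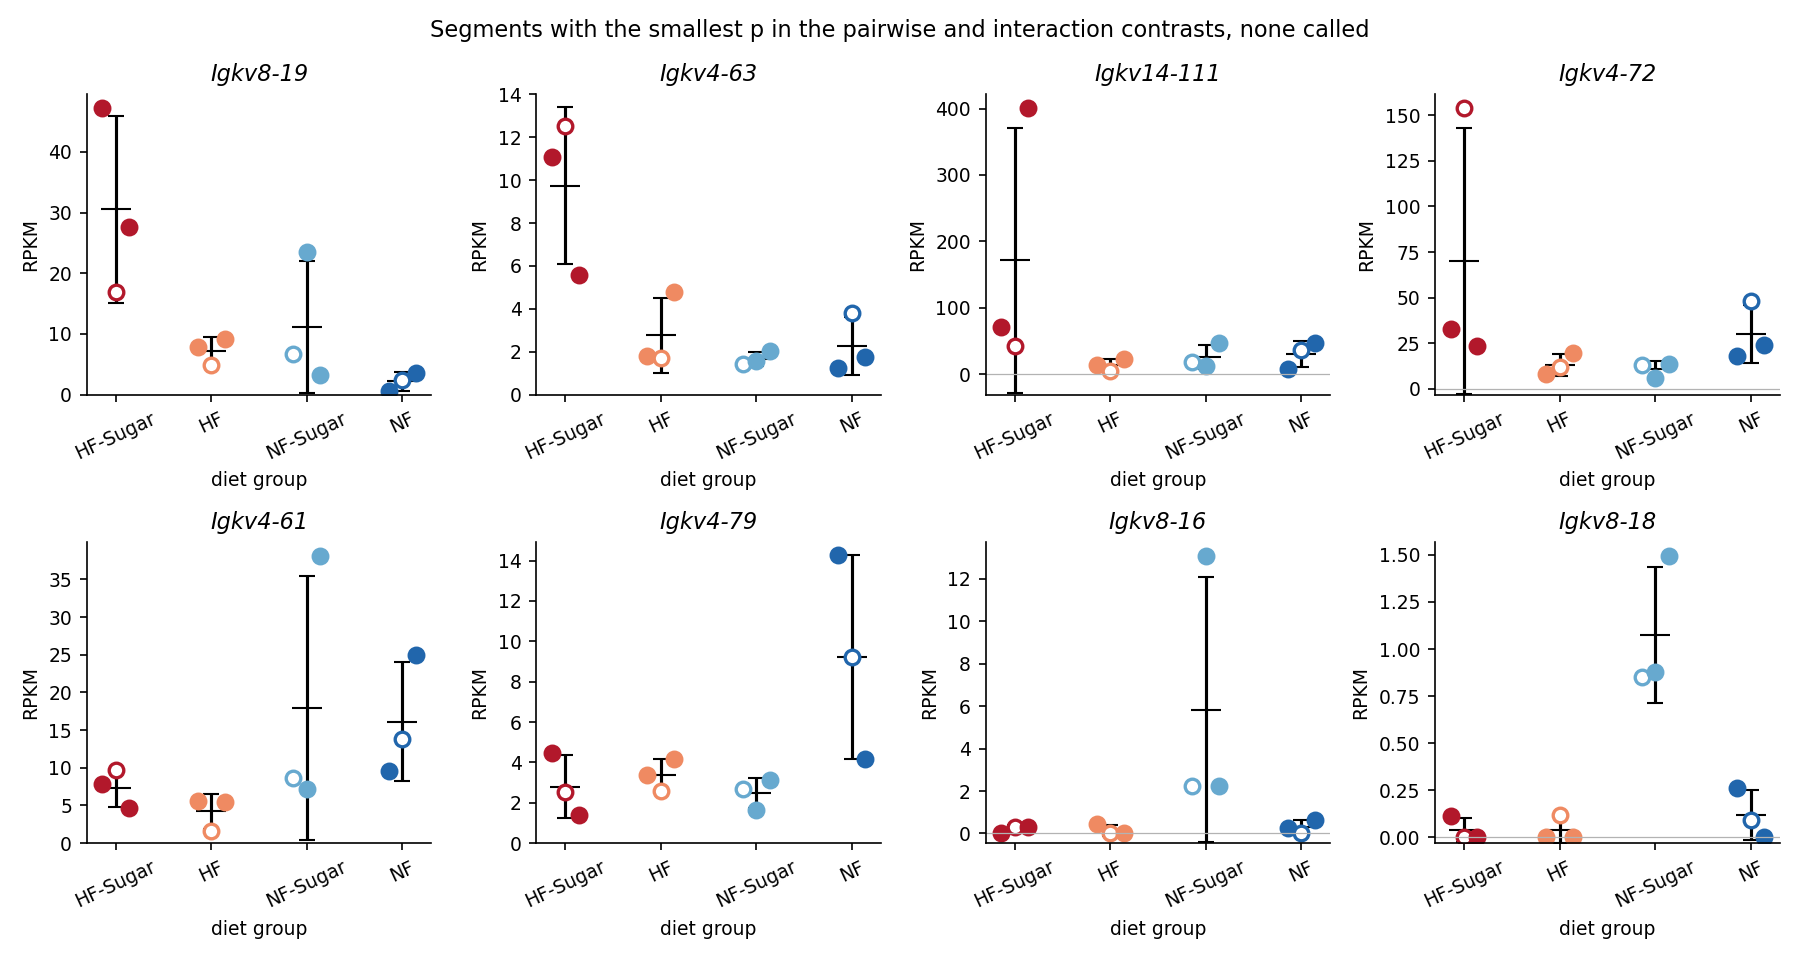
RPKM (vertical axes) by diet group (horizontal axes) of the 8 segments with the smallest p in a pairwise contrast without overlap or in the interaction, with 1 point per library and bars for mean ± SD (n = 3). Open points are the 4 libraries that stood apart; all HF-Sugar points lie above the other 9 for Igkv4-63 and all NF-Sugar points above the other 9 for Igkv8-16 and Igkv8-18.

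The most used segments showed no call either. Igkv1-117 stood at 286 ± 249 RPKM in HF-Sugar mice, 165 ± 54.3 in HF mice, 143 ± 81.1 in NF-Sugar mice and 85.5 ± 37.3 in NF mice (log2 1.43 ± 0.61 in HF-Sugar against NF, limma adjusted p = 0.96). Igkv1-110 stood at 193 ± 85.9, 95.4 ± 41.7, 118 ± 37.1 and 112 ± 45.8 RPKM in the same order of groups (log2 0.71 ± 0.44, adjusted p = 0.96). The remaining segments of the 12 most used spread widely within a diet: Igkv8-30 stood at 197 ± 202 RPKM in HF-Sugar mice and 50.3 ± 55.4 in NF mice, Igkv9-120 at 111 ± 146 and 19.5 ± 10.5, Igkv4-59 at 64.8 ± 65.4 and 101 ± 119, and Igkv10-96 at 35.6 ± 15.0 and 44.5 ± 45.5 in the same 2 groups.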

How the data were processed

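Per the labels, total RNA (integrity number above 8) of 12 mouse ilea was made into libraries with the Ion Total RNA-Seq kit. The methods give isolation of mRNA and depletion of rRNA before library preparation. They also give Ion Proton sequencing and alignment by STAR to build mm10, run inside Partek Flow. The authors deposited RPKM, in 1 table and in 12 per-sample files that equalled its columns (12 of 12). Of its 44231 rows, 26 were bare numbers and were left out. How reads from similar or somatically mutated segments and strands were handled is not given in the sources used here. The choice of members and lists was made with earlier results of these data known.

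Read depth was worked out from the smallest RPKM increments and GENCODE exon lengths (GRCm38), and 98.96% of Igkv values were whole reads within 0.1. RPKM was scaled by a trimmed mean (30% of ratios, 5% of levels), and log2(RPKM + 1) was fitted with limma 3.58.1 in R 4.3.3 with 4 group means, a trend and 8 residual degrees of freedom, in 8 contrasts. The 17662 genes that reached 0.5 RPKM in 3 libraries entered the test, and p-values were adjusted over all of them by Benjamini-Hochberg. No count model was used as the main test because the unit is RPKM. The fit was tested on simulated data for HF-Sugar against NF. Of genes given a log2 difference of 1, 36% were called, with a median estimate of 0.778. Of those given a larger one 97% were called, and 11 calls were false. The simulation covered 16921 genes and gave no separate share for Igkv segments. Their median SE was 0.74, against 0.18 for the median gene, so these shares do not carry over to them. Diversity, distances, families and figures were computed in Python 3.11.15 with numpy 2.4.6, pandas 2.3.3, biopython 1.88 and matplotlib 3.10.9.

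Segments were named by rule: the 12 with the highest mean share, any that led a library, the 2 with the smallest p without overlap in each of 5 pairs, the 2 smallest interaction p, the 4 highest and 2 lowest coefficients of variation at a mean share of 1% or more, 3 pseudogenes and 3 families by share. Alternatives were other scalings, pseudocounts and filters, limma-voom on recovered reads, a replicate block, the 4 apart libraries left out or as a covariate, each library left out, and for diversity read shares, functional segments, families and the most used segment left out. Each library is 1 mouse, so p-values measure the spread between these animals.

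Replicate numbers were checked for pairing by the correlation of deviations from group means over all genes. All 3 pairs exceeded 0.1 for HF-Sugar with HF (0.131 to 0.557) and with NF (0.188 to 0.511) and not for the other 4 pairs of groups. The highest values joined replicates 2 of HF-Sugar, HF and NF, which all stood apart on the first component. A pairing cannot be told apart from that split, and no label gives one. Over the tested Igkv segments the correlations of HF-Sugar with HF were -0.212 to 0.147. The main test had no block, and the fit with the block was an alternative.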

Additional observations from a re-analysis of the deposited data

How the results depend on the processing

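Over 336 counts of called segments under alternatives, 333 were 0. The exception was the fit without NF replicate 1, which called 1 segment in HF-Sugar against NF, NF-Sugar against NF and sugar against water (limma adjusted p = 0.0124, 0.0127 and 0.0334). It was Igkv12-40, an annotated pseudogene singled out after its values were seen, with 36 and 43 reads in NF replicates 2 and 3, 1 in NF replicate 1 and at most 7 elsewhere. It reached 0.5 RPKM only in NF replicates 2 and 3 (3.77 and 5.13 RPKM) and HF replicate 3 (0.998). Without the NF libraries it would not have been tested, so a difference from the other groups was built into its selection. How many of all genes passed in the fit without NF replicate 1 is not given here, so this call stands without a background. The counts thus ranged from 0 to 1 with each library left out. With the replicate block the count stayed 0 in all 8 contrasts (smallest adjusted p in HF-Sugar against HF 0.523), and it changed no other call. All 268 alternative differences of named segments kept their direction and stayed above the threshold. For Igkv8-18 in HF-Sugar against NF-Sugar the adjusted p ranged from 0.0922 to 1 and the log2 difference from -3.73 to -0.27.

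With families in place of segments the effective number was 8.35 in HF-Sugar, 9.24 in HF, 9.61 in NF-Sugar and 9.49 in NF mice, and the share of the leading family 31.3%, 25.8%, 23.5% and 24.3%, as fewer classes must give. The HF-Sugar minus NF difference in effective number was then -1.15, with overlap, against -11.9 for segments, and NF-Sugar minus NF turned to 0.111 (effective number) and -0.771 (leading share, in percentage points), with HF minus NF at 1.59. Without Igkv1-117 the effective numbers of HF-Sugar and NF mice overlapped (difference -8.93) and the leading share of NF mice was 10.6%. Without the 4 apart libraries the differences in effective number were -17.7 for HF-Sugar minus NF, -17.0 for HF-Sugar minus HF and -13.5 for HF-Sugar minus NF-Sugar, without overlap. At common reads 105 segments were expected in HF-Sugar and 107 in NF-Sugar mice. Each library left out gave -15.6 to -9.95 for HF-Sugar minus NF; HF minus NF ranged from -11.3 to 1.44, turning without HF replicate 2, and the leading share of HF-Sugar minus HF from -2.65 to 4.42, turning without HF-Sugar replicate 1 (-1.52) or HF replicate 3. The cause of these changes was not tested.

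Depth limits the rarest segments: Igkv8-18 rests on 9 reads or fewer a library.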
